A study of Mus musculus with 4 samples.

Results

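The cells described here are endothelial cells (ECs) of the mouse brain with high levels of both *Apln* and *Esm1*, the markers that name endothelial tip cells. They come from single-cell RNA sequencing (10x Genomics 3′ chemistry, in which unique molecular identifiers, UMIs, count RNA molecules) of cerebral vascular fragments pulled out with PECAM1-coated beads. One library was made for each of 4 mice aged 3 months. The 2 *Angpt2*-KO mice lack an exon of *Angpt2* in all cells from the germline on, after recombination of a floxed allele by Pgk-Cre, and the 2 *Angpt2*-WT mice were littermate controls on the same C57BL6/J background. KO1 and WT1 were female, whereas KO2 and WT2 were male, so that sex and replicate number cannot be told apart. The 3′ counts do not read the deleted exon, and *Angpt2* UMIs therefore do not check the genotype labels. After filtering, 17999 cells remained, and the depth was 32896366 (WT1), 42903731 (WT2), 32558112 (KO1) and 31753395 (KO2) UMIs per library.

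Tip cells lead new vessel sprouts. They extend filopodia, migrate towards VEGF, express the Notch ligand DLL4, which restrains neighboring ECs from the same fate, and secrete proteins that shape the matrix around the sprout. *Apln* codes for apelin, a secreted peptide that acts on the receptor APLNR, and *Esm1* for endocan, a secreted proteoglycan, and both are widely used as tip cell markers. Blood vessels of the healthy adult brain are largely quiescent and carry the transporters and junctions of the blood-brain barrier (BBB).

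Members were chosen by their UMIs. A cell was taken as an EC if it had more than 500 genes, under 10% mitochondrial UMIs, at least 3 of the 6 EC markers *Cldn5*, *Flt1*, *Pecam1*, *Cdh5*, *Kdr* and *Tie1*, and fewer than 3 UMIs of *Pdgfrb*, *Vtn*, *Acta2* and *C1qb* together. Of 14924 ECs, the 105 with at least 10 *Apln* and at least 5 *Esm1* UMIs are called tip cells below. KO1 held 71 of them among 2261 ECs (3.14%, 95% exact binomial interval 2.46 to 3.94), and KO2 held 33 among 4325 (0.763%, 0.526 to 1.07). WT2 held 1 among 4988 (0.0200%, 0.000508 to 0.112), and WT1 held 0 among 3350 (0 to 0.110), where 3 cells, the limit that a count of 0 allows, would be a share of 0.0896%. Both *Angpt2*-KO shares lay above both *Angpt2*-WT shares, and the intervals of KO1 and KO2 did not overlap. With the cut-offs applied after every cell was thinned to 5000 UMIs the shares were 2.07% (1.44 to 2.88) in KO1 and 1.09% (0.637 to 1.74) in KO2, with intervals that overlap. With 2 mice against 2, an exact permutation test gives no two-sided p below 0.333, and all intervals cover counting error only. Because *Apln* and *Esm1* chose the cells, their levels are a description. Per cell, tip cells had from 10 to 531 *Apln* UMIs in KO1 (median 57) and from 10 to 281 in KO2 (median 35), and from 5 to 400 *Esm1* UMIs in KO1 (median 37) and from 5 to 140 in KO2 (median 22).

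**Figure D1:**
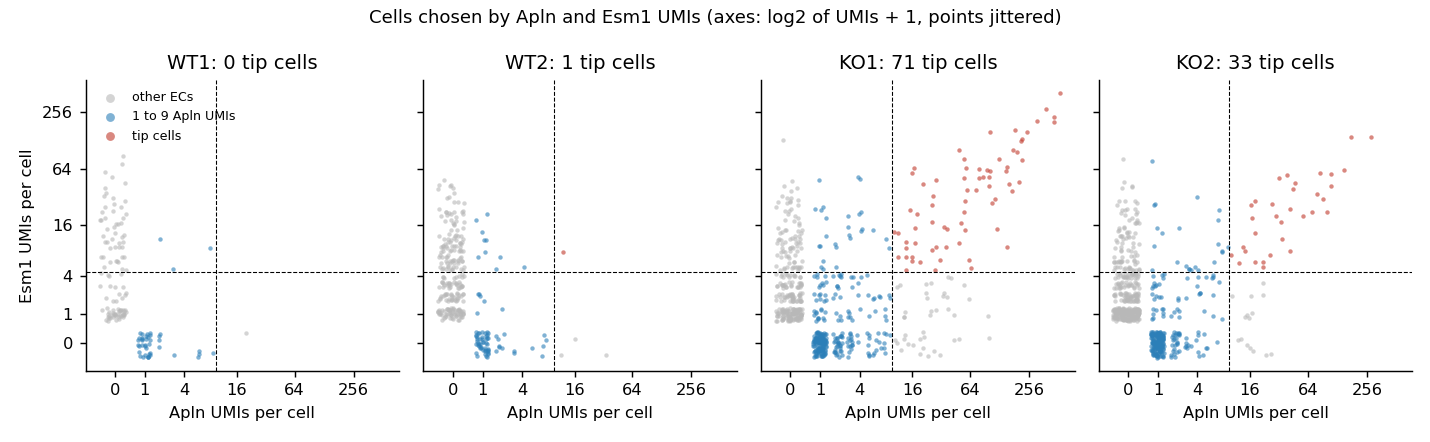
Each point is 1 EC with at least 1 *Apln* or *Esm1* UMI, in 1 panel per mouse, with *Apln* UMIs on the x axis and *Esm1* UMIs on the y axis, both spaced as log2(UMIs + 1) with a small random shift; red points are tip cells. Dashed lines mark the cut-offs of 10 *Apln* and 5 *Esm1* UMIs, and the 71 tip cells of KO1 and 33 of KO2 lie above and to the right of them, some of them close to the lines, whereas WT2 has 1 cell and WT1 has 0 in that corner.

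Just inside the *Apln* cut-off, with 10 to 14 *Apln* UMIs and at least 5 *Esm1* UMIs, were 7 tip cells of KO1, 4 of KO2 and the 1 of WT2. Just inside the *Esm1* cut-off, with 5 to 9 *Esm1* UMIs and at least 10 *Apln* UMIs, were 15 tip cells of KO1, 9 of KO2 and the 1 of WT2. Just outside, with 5 to 9 *Apln* and at least 5 *Esm1* UMIs, were 3 ECs of KO1, 7 of KO2 and 1 of WT1. A larger number had enough *Apln* but 0 to 4 *Esm1* UMIs, namely 40 ECs in KO1, 15 in KO2, 1 in WT1 and 3 in WT2. Those had medians of 12052 (KO1) and 5884 (KO2) UMIs per cell, below the medians of 28329 (KO1) and 18949 (KO2) UMIs in the tip cells.

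The RefSeq sequences upstream of the start sites of the 2 genes that define these cells are shown as the 250 bases before the start (build GRCm38.p6), so that a reader can see what lies there. *Apln* (ENSMUSG00000037010, chrX:48025146-48034853, minus strand) has chrX:48034854-48035103 upstream, and *Esm1* (ENSMUSG00000042379, chr13:113209659-113218098, plus strand) has chr13:113209409-113209658. Both are written 5′ to 3′ in the direction of transcription, and capitals mark each copy of the letters GGAA, the core bound by ETS factors, on either strand (TTCC on the strand printed). Each sequence holds 3 copies, the median over all 32851 promoters of the same length, of which 93.4% hold at least 1.
Apln: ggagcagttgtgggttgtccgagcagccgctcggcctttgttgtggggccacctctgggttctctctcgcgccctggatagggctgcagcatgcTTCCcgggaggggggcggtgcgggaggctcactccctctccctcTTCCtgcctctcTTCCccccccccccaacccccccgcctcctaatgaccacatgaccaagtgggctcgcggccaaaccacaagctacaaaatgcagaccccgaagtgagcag
Esm1: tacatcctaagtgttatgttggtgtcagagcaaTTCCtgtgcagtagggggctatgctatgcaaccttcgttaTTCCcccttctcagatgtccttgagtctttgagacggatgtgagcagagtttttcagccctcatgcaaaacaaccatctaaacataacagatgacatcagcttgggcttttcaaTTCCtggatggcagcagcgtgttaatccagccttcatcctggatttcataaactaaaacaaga

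The EC markers were part of the choice of cells, so their levels are a description. All 6 were found in 67 of 71 tip cells of KO1 and 27 of 33 of KO2. *Cldn5*, the main claudin of brain vessels, was at 3374 (KO1) and 3349 (KO2) CPM in tip cells and at 4146 and 4457 CPM in the comparator defined next. CPM, the usual scaling of counts to a common total, are given for the summed UMIs of all cells of 1 class in 1 mouse. The choice of cells limited *Pdgfrb*, *Vtn*, *Acta2* and *C1qb*, and the other markers of pericytes and microglia were not part of it. The 8 pericyte markers summed to 6.71 (KO1) and 16.6 (KO2) CPM against 58.5 and 61.8 CPM in the comparator. *Rgs5*, the most abundant of them and not limited by the choice, was at 3.78 and 7.56 CPM against 49.3 and 49.7 CPM, *Kcnj8* and *Cspg4* had 0 UMIs in KO1 tip cells, and *Notch3* and *Cspg4* had 0 in those of KO2. The 8 microglial markers summed to 47.0 (KO1) and 31.7 (KO2) CPM against 40.9 and 55.1 CPM in the comparator, with UMIs of 7 of them in KO1 tip cells and of 6 in those of KO2. *Tmem119* had 0 UMIs in both tip cell sums and *Csf1r* had 0 in that of KO2, whereas all 8 had UMIs in both comparator sums. The 6 astrocyte markers summed to 77.2 and 92.2 CPM against 101 and 86.9 CPM, mostly from *Gja1*. Hemoglobin genes differed widely, since the 5 erythroid markers summed to 16.8 (KO1) and 7772 (KO2) CPM in tip cells and to 5321 and 11517 CPM in the comparator. A single KO2 tip cell held 2919 of the 2946 *Hbb-bs* UMIs of that sum, and without cells with 10 or more *Hbb-bs* UMIs the comparison described next called 1536 genes higher and 1282 lower. The tip cell of WT2 carried 4 of the 4 markers of fenestrated ECs, with 19 *Plvap* UMIs, against a highest value of 3 among tip cells of KO1 and of 32 among those of KO2. It had 28 *Igfbp3* UMIs, against at most 10 in any tip cell of the *Angpt2*-KO mice, and entered no test. One tip cell shared its barcode with a cell of another library, among 1 (KO1 and WT1) to 16 (KO2 and WT1) barcodes that any pair of libraries shared.

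To see what else set these cells apart, the tip cells of each *Angpt2*-KO mouse were compared with ECs of the same mouse that had 1 to 9 *Apln* UMIs (the comparator, 296 cells in KO1 and 273 in KO2). UMIs were summed per mouse and class, and the sums were tested by quasi-likelihood in edgeR, with the mouse as a term and p-values adjusted after Benjamini and Hochberg over all 10247 genes tested, without the 12 genes that the choice of cells used. A gene is called where the adjusted p was under 0.05. In all, 1474 genes were higher in tip cells (14.4% of those tested) and 1319 were lower (12.9%), and the median log2 fold change of all genes was −0.03. The genes higher in tip cells included secreted ligands (*Pgf*, *Adm*, *Pdgfb*, *Edn1*), the chemokine receptor *Cxcr4*, laminin and collagen IV chains, collagen crosslinking enzymes, several integrins and much of the actin machinery. Those lower in tip cells included the Tie receptor gene *Tek*, most listed transporters of the BBB, genes of Wnt signaling and markers of venous ECs. With 4 sums and 1 residual degree of freedom, the error of each gene rests mostly on the trend shared over all genes, and DESeq2 called fewer genes, 556 higher (5.43%) and 319 lower (3.11%). Without KO1 the comparison called 687 higher and 543 lower, and without KO2 1225 and 985. In those fits the 1 remaining sum of tip cells is assumed to vary like the sums of other ECs of the remaining mice of both genotypes, from which the spread was estimated.

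Tip cells were deeper than the comparator, and a cut-off in UMIs by its construction favors deep cells. The median was 28329 UMIs per tip cell in KO1 and 18949 in KO2, against 10607 and 5446 in the comparator. When every cell was thinned to 5000 UMIs (70 and 33 tip cells, 255 and 147 comparator cells, 1, 0, 41 and 126 shallower cells left out), tip cells had medians of 2253 (KO1) and 2239 (KO2) genes and the comparator 2254 and 2277. The thinned sums still gave 607 genes higher (8.76%) and 511 lower (7.38%) of 6928 tested, and 1068 of these 1118 calls were also made, in the same direction, without thinning. With the *Apln* and *Esm1* cut-offs applied after thinning (34 tip cells in KO1 and 17 in KO2), 418 were higher (7.25%) and 413 lower (7.16%) of 5768. No doublet caller was run, and the part of droplets with more than 1 EC was not tested. In cells with at least 10000 UMIs in both classes, 1259 genes were higher (12.8%) and 1150 lower (11.7%).

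**Figure D2:**
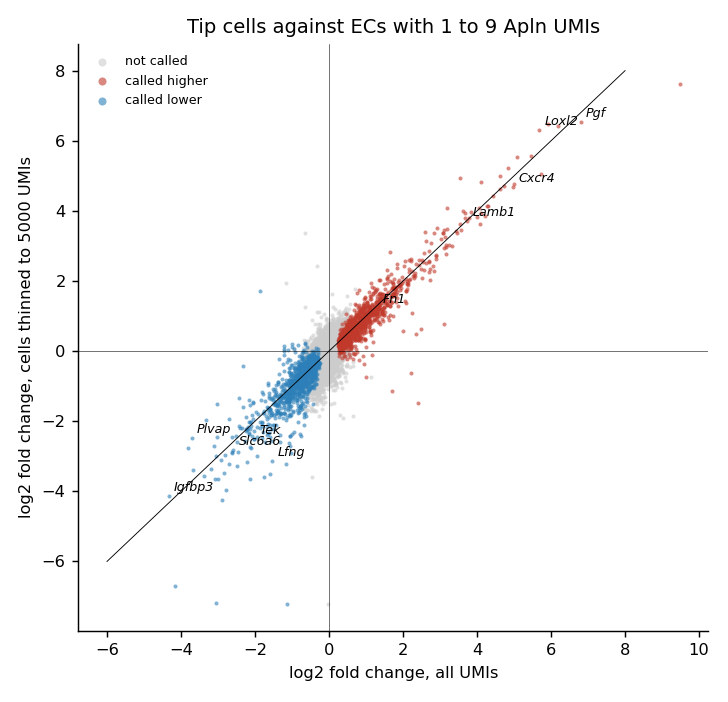
Log2 fold changes between tip cells and ECs with 1 to 9 *Apln* UMIs in the *Angpt2*-KO mice, from all UMIs (x axis) and after thinning every cell to 5000 UMIs (y axis), with 1 point per gene, in red or blue where called higher or lower from all UMIs, and some genes labelled. Most called genes lie near the diagonal of equal values, with *Pgf* at 6.80 and 6.53 and *Tek* at −2.02 and −2.51.

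Counts of called members are to be read against the shares of all genes called higher and lower. Those were 14.4% and 12.9% from all UMIs, 8.76% and 7.38% after thinning and 5.43% and 3.11% with DESeq2. The counts include genes that could be tested only through the class in which they were higher, and the folds of such genes are a description. A list of 26 tested tip cell genes, in part known from other vessels and in part chosen by the study on these libraries, held 22 that were higher and 2 that were lower (median log2 fold change 1.42; all genes −0.03). After thinning, 19 were higher and 1 lower of 25. Because of that choice, its direction is not independent evidence. A further list, taken from the supplement of the study, marks tip-like ECs of pericyte-deficient *Pdgfb* ret/ret mice. The study gives an earlier publication on those mice as the basis of this selection. Whether these libraries also played a part in it was not tested, so the list carries the same limit. Left out of it were *Apln*, which the choice of cells used, and a name that matched no gene, and 4 misspelled names were read as the symbols closest to them. Of the 60 genes used, all tested, 55 were higher and 0 lower (median 1.86), with 46 and 0 of 58 after thinning and 52 and 0 with DESeq2. Its members included *Kit*, *Fxyd6*, *Gpx3* and *Chst1*. *Kit*, the stem cell factor receptor, was at 276 (KO1) and 286 (KO2) CPM in tip cells and at 13.3 and 24.2 CPM in the comparator (log2 fold change 4.08 ± 0.141 SE). *Fxyd6*, a regulator of the sodium pump, was at 387 and 352 CPM against 19.9 and 14.3 CPM (4.44 ± 0.131 SE). The classes did not overlap for either gene. *Gpx3*, a secreted glutathione peroxidase, was at 109 and 195 CPM against 4.42 and 3.58 CPM (5.08 ± 0.223 SE). *Chst1*, a sulfotransferase of glycans, was at 152 and 151 CPM against 6.41 and 3.58 CPM (4.84 ± 0.208 SE). In KO2 each had 8 comparator UMIs, and both could be tested only through the tip cells, so their folds are a description. *Igfbp3* and *Ramp3* were the 2 tip cell genes called lower. *Igfbp3*, an insulin-like growth factor binding protein, was at 13.8 (KO1) and 16.6 (KO2) CPM in tip cells and 389 and 83.3 CPM in the comparator. That difference rested on comparator cells with fenestrated markers, since without cells with 3 or more *Plvap* UMIs its log2 fold change was −0.24 in place of −4.33 and was no longer called.

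**Figure D3:**
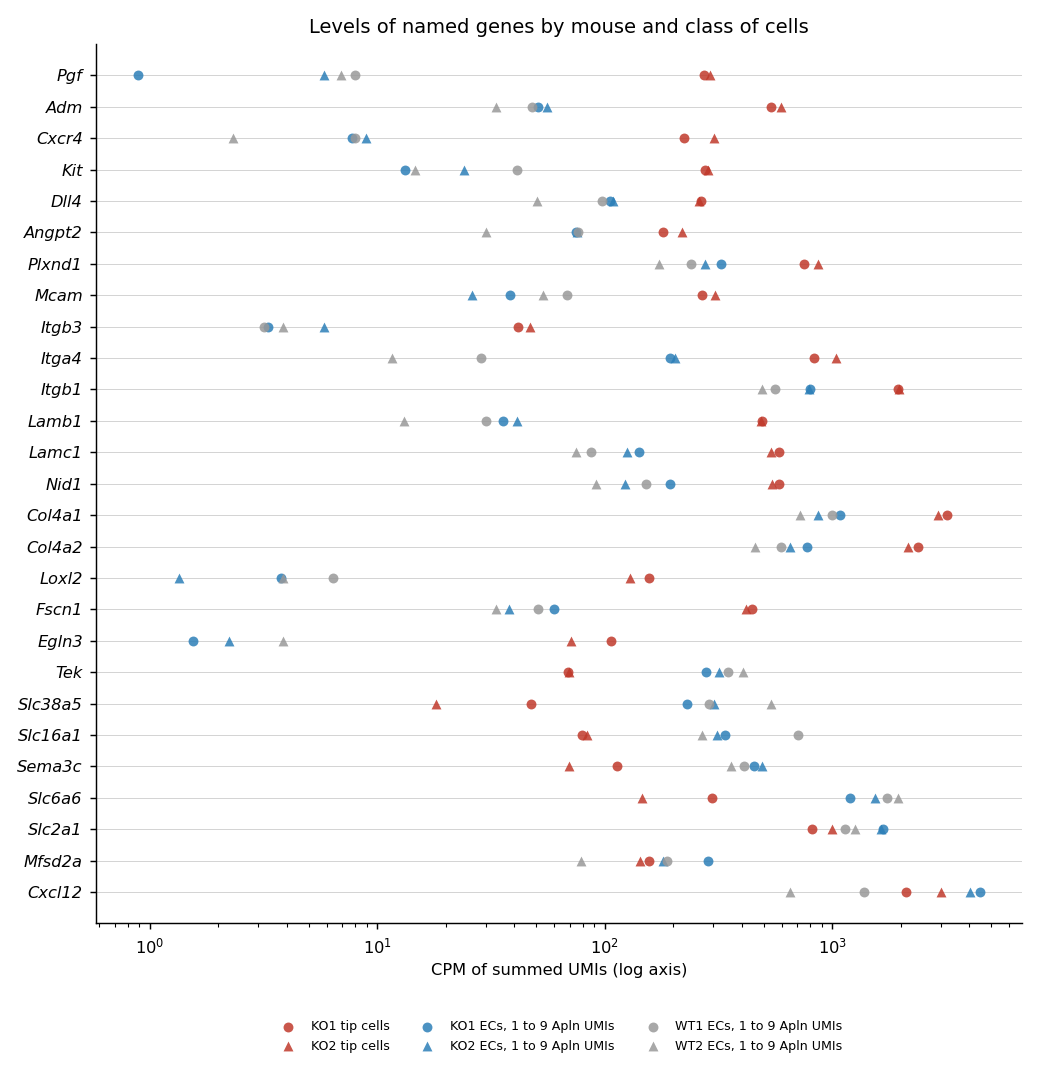
CPM (x axis, log scale) of named genes (y axis) in the 2 sums of tip cells and in the sums of ECs with 1 to 9 *Apln* UMIs of all 4 mice; 1 point is 1 sum of 1 mouse, and sums at 0 are not drawn. For *Pgf* the tip cell sums of KO1 and KO2 lie at 272 and 290 CPM and the other sums at or below 7.95 CPM, whereas for *Tek* the tip cell sums are the lowest.

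Among the ligands, *Pgf* codes for the placental growth factor, which binds VEGF receptor 1 (*Flt1*). Its gene lies at chr12:85166635-85177790 (GRCm38), and its UMIs numbered 648 (KO1) and 192 (KO2) in tip cells against 4 and 13 in the comparator, or 272 and 290 CPM against 0.884 and 5.82 CPM. Its log2 fold change was 6.80 ± 0.197 SE, and 6.53 after thinning, given as a description since the gene had enough UMIs to be tested only through the tip cells. The UMIs were unequally spread, as 32 of 71 tip cells of KO1 had any and 1 of them held 245. *Adm* (chr7:110627661-110629820), which codes for the vasodilator peptide adrenomedullin, was at 539 (KO1) and 594 (KO2) CPM in tip cells and 50.8 and 55.5 CPM in the comparator (log2 fold change 3.46 ± 0.117 SE). *Edn1*, the vasoconstrictor endothelin 1, was at 1320.2 and 1875 CPM against 559 and 638 CPM (1.44 ± 0.103 SE), and *Pdgfb*, the growth factor that recruits pericytes, at 1070.2 and 1135 CPM against 654 and 691 CPM (0.76 ± 0.104 SE). Both tip cell values were above both comparator values for all of these ligands. The lymphatic growth factors *Vegfc* and *Vegfd* had log2 fold changes of −1.24 and −2.25, and neither call held with DESeq2. Both could be tested only through the comparator, so their folds are a description. *Vegfa* had 10 UMIs in the tip cells and 8 in the comparator and was too low to test. For *Pgf*, *Vegfb*, *Vegfc*, *Vegfd*, *Flt4*, *Nrp1* and *Nrp2* together, 4 were called higher, 2 lower and 1 was not called (median 0.40), and DESeq2 called 1 higher (*Pgf*) and 0 lower.

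The receptors changed unevenly. *Cxcr4* (chr1:128588199-128592293), the receptor of the chemokine CXCL12, was at 222 (KO1) and 302 (KO2) CPM in tip cells and at 7.73 and 8.95 CPM in the comparator. Its log2 fold change was 4.98 ± 0.162 SE (Benjamini-Hochberg adjusted p = 1.52e-100 by edgeR's quasi-likelihood test), whereas *Cxcl12* itself was lower, at 2112 and 2998 CPM against 4482 and 4039 CPM (−0.71 ± 0.0759 SE), a call that was lost with DESeq2 and without either mouse. The coreceptors *Nrp1* (0.38) and *Nrp2* (0.40) and VEGF receptor 3 (*Flt4*, 0.40) were called higher by small amounts, and none of these 3 calls held with DESeq2 or without KO1. *Nrp1* was at 705 and 800 CPM against 645 and 545 CPM, and its log2 fold change was −0.18 against comparator cells that had an *Esm1* UMI. *Flt4* was at 133 and 150 CPM against 115 and 99.8 CPM, and its log2 fold change was 0.11 after thinning, where it was not called. *Aplnr*, the apelin receptor, was at 20.6 and 15.1 CPM against 33.1 and 19.3 CPM and was not called (log2 fold change −0.56 ± 0.252 SE). Without cells with 3 or more *Plvap* UMIs *Aplnr* was called lower (−0.68). Of the receptors of adrenomedullin, *Calcrl* (−0.79) and its partners *Ramp2* (−1.02) and *Ramp3* (−2.24) were lower, as was *Gpr182* (−2.98), an atypical receptor whose call was lost with DESeq2 and without KO1. *Ramp3* and *Gpr182* could be tested only through the comparator, so their folds are a description. *Ramp3* was at −0.97 without cells with 3 or more *Plvap* UMIs.

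In the angiopoietin pathway the ligand and the receptor went in opposite directions. *Angpt2* (ENSMUSG00000031465, chr8:18690263-18741562) is the gene deleted in these mice, and the UMIs read the 3′ end of the gene, outside the deleted exon. It was at 180 (KO1) and 218 (KO2) CPM in tip cells, 74.9 and 75.7 CPM in the comparator and 34.9 and 28.6 CPM in ECs without *Apln* UMIs. Those 3 classes kept that order in both mice. The log2 fold change of tip cells over the comparator was 1.42 ± 0.119 SE (Benjamini-Hochberg adjusted p = 3.04e-26 by edgeR's quasi-likelihood test), and 1.07 after thinning. Against comparator cells with an *Esm1* UMI, and with the *Apln* and *Esm1* cut-offs applied after thinning, the gene was not called. In the *Angpt2*-WT mice it was at 76.3 (WT1) and 30.1 (WT2) CPM in the ECs with 1 to 9 *Apln* UMIs and at 10.7 and 9.65 CPM in those with 0. *Tek* (chr4:94739289-94874976), the receptor that both angiopoietins bind, ran the other way, at 69.2 (KO1) and 69.5 (KO2) CPM in tip cells, 278 and 317 CPM in the comparator and 367 and 406 CPM in ECs without *Apln* UMIs. Its log2 fold change was −2.02 ± 0.122 SE (Benjamini-Hochberg adjusted p = 3.06e-44 by edgeR's quasi-likelihood test), and −2.51 after thinning. *Ptprb*, the phosphatase that acts on the TEK protein, was lower as well (−0.94). *Foxo1*, a transcription factor downstream of this receptor, was at 122 and 118 CPM against 141 and 135 CPM and was not called (−0.15 ± 0.12 SE).

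Of 14 Notch genes tested, 5 were higher and 3 lower (median 0.10; 14.4% and 12.9% of all genes). After thinning 2 and 1 of 11 were called (8.76% and 7.38% of all genes) and with DESeq2 1 and 0 (5.43% and 3.11%), so that the list was near the background there. *Dll4*, the ligand of tip cells, was at 264 (KO1) and 260 (KO2) CPM in tip cells and 105 and 109 CPM in the comparator (1.35 ± 0.107 SE). The calls of the Notch target *Nrarp* (0.93) and the receptor *Notch4* (0.70) were lost after thinning and with DESeq2. *Notch1* was at 251 and 308 CPM against 249 and 241 CPM and was not called (0.21 ± 0.107 SE), but was called higher (0.29) without cells with 3 or more *Plvap* UMIs. *Lfng*, a glycosyltransferase that modifies Notch receptors, was at 15.5 and 19.7 CPM against 54.6 and 39.0 CPM (−1.54 ± 0.237 SE), and this call and that of *Dll1* (−2.32) were lost with DESeq2 and without KO1. *Dll1* could be tested only through the comparator, so its fold is a description. Among 18 guidance genes of vessels and axons, 8 were higher and 4 lower (median 0.11), with 5 and 3 of 15 after thinning (median −0.33) and 3 and 1 with DESeq2. *Plxnd1*, a semaphorin receptor, was at 751 and 863 CPM in tip cells and 323 and 275 CPM in the comparator (1.48 ± 0.11 SE), and *Unc5b*, a netrin receptor, at 95.2 and 122 CPM against 38.9 and 43.4 CPM (1.42 ± 0.157 SE), a call lost against comparator cells with an *Esm1* UMI. ECs without *Apln* UMIs had 86.7 and 87.4 CPM of *Unc5b*, so that the comparator was the low class, and the log2 fold change against them was 0.34. *Sema3c*, a secreted semaphorin, was at 113 and 69.5 CPM against 453 and 491 CPM (−2.23 ± 0.119 SE). The venous receptor *Ephb4* (−1.17) was called lower, but not with DESeq2 or without KO1. *Efnb2*, its arterial ligand, was not called (−0.07).

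Genes of the vascular basement membrane were mostly higher. Of 19 basement membrane genes tested, 13 were higher and 3 lower (median log2 fold change 1.35), and after thinning 13 were higher and 2 lower of 17. *Lamb1* (chr12:31265234-31329644), which codes for the laminin β1 chain, was at 492 (KO1) and 488 (KO2) CPM in tip cells and 35.8 and 41.2 CPM in the comparator. Its log2 fold change was 3.74 ± 0.122 SE (Benjamini-Hochberg adjusted p = 1.52e-100 by edgeR's quasi-likelihood test). *Lamc1*, the γ1 chain, was at 583 and 540 CPM against 141 and 126 CPM (2.12 ± 0.109 SE). *Lamb2* (−0.86), which codes for another laminin chain, was lower, so that the chains did not move together. *Lama3* (−2.15), a further laminin chain, was lower too, but could be tested only through the comparator, so its fold is a description. The call of *Lama3* was lost with DESeq2 and without KO1. *Col4a1* and *Col4a2*, the collagen IV chains of all vessels, were at 3202 and 2376 CPM in KO1 tip cells and 2924 and 2154 CPM in KO2 tip cells. In the comparator they were at 1084 and 776 CPM (KO1) and 865 and 655 CPM (KO2), which gave log2 fold changes of 1.71 ± 0.0881 and 1.72 ± 0.0955 SE. *Nid1*, which links laminin to collagen IV, was at 583 and 541 CPM against 193 and 123 CPM (1.89 ± 0.11 SE). *Mcam*, an adhesion molecule that binds laminin, was at 267 and 304 CPM against 38.2 and 26.0 CPM (3.12 ± 0.126 SE).

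Genes that process and crosslink collagen were higher in 8 of 13 cases and lower in 0 (median 1.07; 5 and 0 of 10 after thinning; 5 and 0 with DESeq2). *Loxl2* (chr14:69609068-69695834), a lysyl oxidase that crosslinks collagen IV, was at 157 (KO1) and 129 (KO2) CPM in tip cells and 3.75 and 1.34 CPM in the comparator (5.68 ± 0.235 SE). With 17 (KO1) and 3 (KO2) comparator UMIs, *Loxl2* could be tested only through the tip cells, so its fold is a description. *Pxdn*, the peroxidase that forms sulfilimine bonds in collagen IV, was at 194 and 243 CPM against 34.5 and 32.2 CPM (2.70 ± 0.133 SE). *Bgn*, the proteoglycan biglycan, was at 167 and 122 CPM against 22.5 and 13.4 CPM (3.02 ± 0.165 SE). Neither mouse's tip cells overlapped with the comparator for any of these genes. Of 16 matrix proteases and their inhibitors, 9 were higher and 1 lower (median 0.68). *Adamts4* was at 30.2 (KO1) and 24.2 (KO2) CPM in tip cells and 1.77 and 0.895 CPM in the comparator (4.26 ± 0.408 SE), and *Mmp14* at 31 and 16.6 CPM against 1.77 and 0.895 CPM (4.16 ± 0.419 SE). Both code for metalloproteinases, and the classes did not overlap for either. Each had 8 (KO1) and 2 (KO2) comparator UMIs and could be tested only through the tip cells. Their folds and the lack of overlap are therefore a description. *Timp3*, a metalloproteinase inhibitor, was not called (−0.21).

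Integrins were higher where they were called. Of 24 integrin genes listed, 9 had enough UMIs to be tested, and of these 6 were higher and 0 lower (median 1.21; 5 and 0 of 7 after thinning; 5 and 0 with DESeq2). *Itga4*, which pairs with β1 to bind fibronectin and VCAM1, was at 834 (KO1) and 1039 (KO2) CPM in tip cells and 194 and 204 CPM in the comparator (2.27 ± 0.112 SE). In ECs with 1 to 9 *Apln* UMIs of the *Angpt2*-WT mice it was at 28.6 (WT1) and 11.6 (WT2) CPM. *Itgb1*, the β1 chain, was at 1954 and 1971 CPM against 797 and 789 CPM (1.36 ± 0.0964 SE). *Itgb3* (chr11:104608000-104670476), which pairs with αv on angiogenic ECs, was at 41.5 and 46.9 CPM against 3.31 and 5.82 CPM (3.43 ± 0.292 SE). With 15 (KO1) and 13 (KO2) comparator UMIs, *Itgb3* could be tested only through the tip cells, so its fold is a description. Its partner *Itgav* was at 49.1 and 51.4 CPM against 21 and 16.6 CPM (1.40 ± 0.214 SE). *Itga5* (1.21), a fibronectin receptor chain, and *Itga9* (1.13) completed the 6, although the call of *Itga9* was lost with DESeq2 and without either mouse. The laminin receptor chains *Itga1* (0.09), *Itga3* (0.54) and *Itga6* (−0.17) were not called.

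Genes of the cytoskeleton were mostly higher. Of 39 actin and filopodia genes tested, 27 were higher and 3 lower (median 0.90; 21 and 0 of 36 after thinning; 24 and 0 with DESeq2). *Fscn1*, the bundler of actin in filopodia, was at 444 (KO1) and 419 (KO2) CPM in tip cells and 60.1 and 38.1 CPM in the comparator (3.15 ± 0.118 SE). The tubulin gene *Tubb6* was at 99.0 and 84.7 CPM against 17.7 and 8.95 CPM (2.74 ± 0.2 SE). *Tmsb4x*, which binds actin monomers, was among the most abundant genes of tip cells at 25827 and 23509 CPM, against 12585 and 12255 CPM (1.04 ± 0.0376 SE). *Actb* (1.01), *Pfn1* (1.5), *Marcksl1* (2.37) and *Myo10* (1.07), a myosin of filopodial tips, were higher as well, although *Marcksl1* lost its call without KO1. With 32 (KO1) and 1 (KO2) comparator UMIs, *Marcksl1* could be tested only through the tip cells, so its fold is a description. *Ezr* (−1.30), *Enah* (−0.80) and *Baiap2* (−0.70), which also act at membrane protrusions, were called lower, but none of them after thinning or with DESeq2. Of 17 focal adhesion genes, 10 were higher and 3 lower (median 0.53; 6 and 2 of 16 after thinning; 7 and 2 with DESeq2), led by *Tns3* (3.09), which links integrins to actin.

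**Figure D4:**
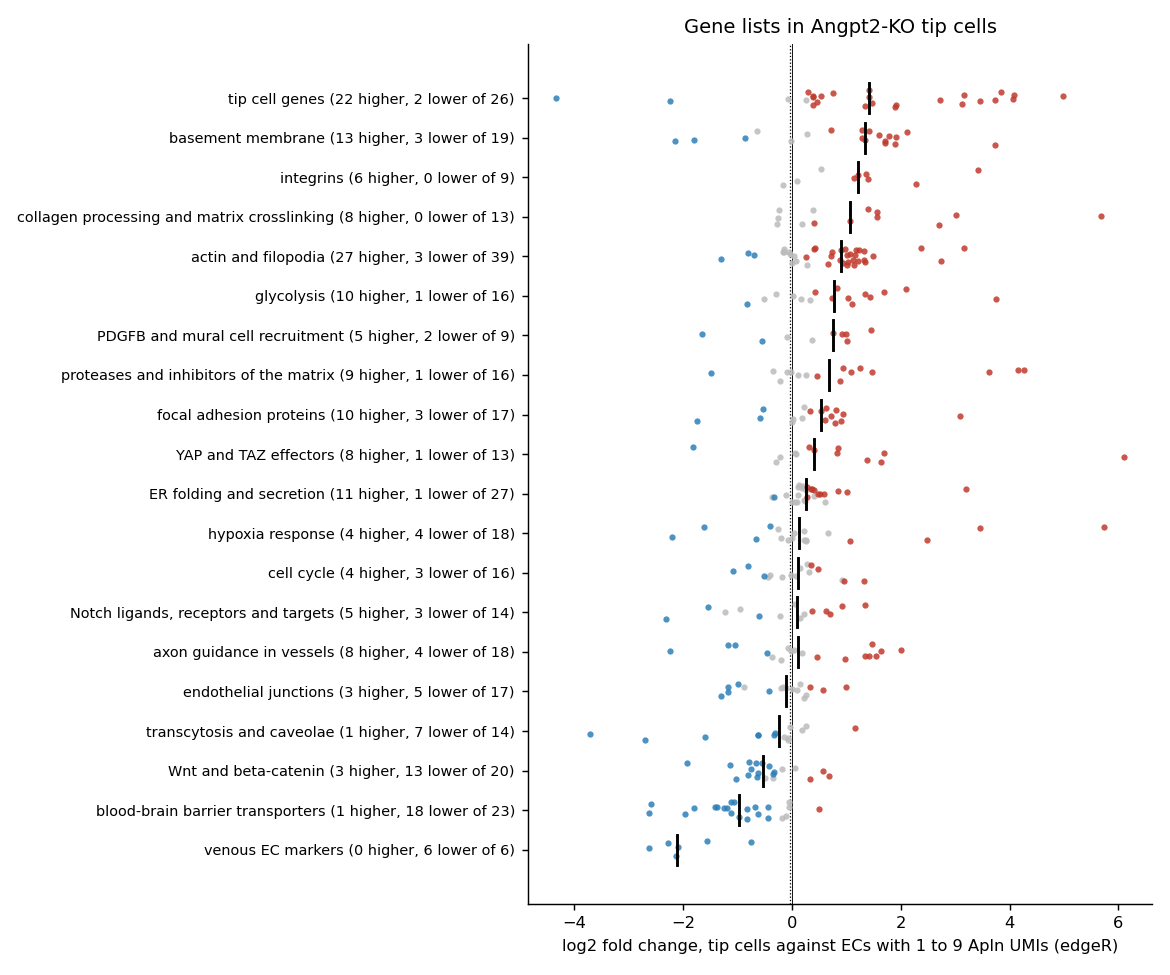
Log2 fold changes between tip cells and ECs with 1 to 9 *Apln* UMIs (x axis) for the tested members of gene lists (y axis), with 1 point per gene, in red where called higher, blue where called lower and grey where not called, and a black bar at the median of each list. Among the lists drawn, the medians run from −2.11 for venous EC markers to 1.42 for tip cell genes, and the dotted line marks the median of all genes at −0.03.

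Transporters of the BBB were lower. Of 23 tested, 18 were lower and 1, *Lrp8* (0.50), was higher (median log2 fold change −0.97; 16 and 1 of 23 after thinning; 14 and 0 with DESeq2). *Slc38a5*, an amino acid transporter, was at 47.4 (KO1) and 18.1 (KO2) CPM in tip cells and 231 and 301 CPM in the comparator (−2.63 ± 0.137 SE). *Slc6a6*, the taurine transporter, was at 295 and 145 CPM against 1201 and 1539.7 CPM (−2.59 ± 0.121 SE). Both tip cell values were below both comparator values in each case, but *Slc38a5* was not called against comparator cells with an *Esm1* UMI. *Slc16a1* (chr3:104638668-104658462), which carries lactate and ketone bodies, was at 79.7 and 83.2 CPM against 338 and 312 CPM (−1.97 ± 0.121 SE; Benjamini-Hochberg adjusted p = 2.54e-43 by edgeR's quasi-likelihood test), and *Slc2a1*, the glucose transporter, at 815 and 1002 CPM against 1679 and 1644 CPM (−0.83 ± 0.0978 SE). *Mfsd2a*, a lipid transporter that restrains transcytosis, was at 156 and 144 CPM against 286 and 180 CPM (−0.62 ± 0.113 SE), a call lost with DESeq2 and without KO1. The efflux pumps *Abcb1a* (−1.25) and *Abcg2* (−1.19) and the transferrin receptor *Tfrc* (−1.37) were lower. *Slc7a5* (−0.06) and *Slc3a2* (−0.05), the 2 chains of the large amino acid transporter, were not called.

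Other parts of the barrier program were mixed. Of 17 junction genes tested, 3 were higher and 5 lower (median −0.11). The tricellular junction gene *Lsr* was at 104 (KO1) and 115 (KO2) CPM in tip cells and 268 and 287 CPM in the comparator (−1.30 ± 0.115 SE), and occludin, *Ocln*, at 94.4 and 112 CPM against 229 and 246 CPM (−1.17 ± 0.114 SE). N-cadherin, *Cdh2*, was higher (0.99), though not without KO1, and the scaffold *Tjp1* was not called (−0.20). Of 20 genes of Wnt and β-catenin signaling, which maintains the barrier, 13 were lower and 3 higher (median −0.52), although only 7 were lower and 2 higher after thinning and 6 and 1 with DESeq2. The feedback inhibitors *Notum* (−1.93) and *Nkd1* (−1.13) and the coreceptor *Reck* (−1.03) were among those lower, of which *Notum* and *Nkd1* were not called against comparator cells with an *Esm1* UMI. The call of *Axin2* (−0.81) was lost after thinning and with DESeq2. Of 14 genes of transcytosis and caveolae, 7 were lower and 1 higher (median −0.23; 5 and 1 of 14 after thinning; 2 and 1 with DESeq2), with *Cavin2*, a coat protein of caveolae, at 164 and 154 CPM against 514 and 484 CPM (−1.60 ± 0.112 SE) and *Cav1* not called (−0.07).

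In terms of vessel zone, all 6 tested markers of venous ECs were lower (median −2.11; 5 of 6 after thinning; 3 with DESeq2), and *Ackr1* had 0 UMIs in both tip cell sums. *Nr2f2*, the transcription factor of venous identity, was at 17.2 (KO1) and 1.51 (KO2) CPM in tip cells and 61.4 and 80.1 CPM in the comparator (−2.27 ± 0.238 SE). Its call was lost with DESeq2, where the log2 fold change was −3.43. *Nr2f2* could be tested only through the comparator, so its fold is a description. Against comparator cells with an *Esm1* UMI the log2 fold change of *Nr2f2* was 0.49. Of 6 markers of capillary ECs, 5 were lower and 1, *Rgcc* (1.08), was higher (median −0.88; 3 and 1 with DESeq2). Of 6 arterial markers, 2 were lower and 0 higher (median −0.59; 0 and 0 of 3 after thinning; 1 and 0 with DESeq2), with *Hey1* (0.05) and *Sema3g* (0.04) not called. The 4 markers of fenestrated ECs were all lower (median −2.54), but none of the 3 that could be tested without cells with 3 or more *Plvap* UMIs was called, and none of the 4 with DESeq2. In KO2, 1 tip cell held 32 of the 34 *Plvap* UMIs of the sum. *Myl9* (2.06) and *Tagln* (1.99), listed as markers of smooth muscle cells, were higher, from 21.8 (KO1) and 28.7 (KO2) CPM of *Myl9* in tip cells and 5.52 and 6.72 CPM in the comparator, while *Cnn1* had 0 UMIs in all 4 sums. All 5 smooth muscle markers summed to 32.3 and 48.4 CPM in tip cells and 9.50 and 19.7 CPM in the comparator, and *Tagln* lost its call with DESeq2 and without KO1. The part of smooth muscle RNA in this was not tested.

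Genes of glycolysis were higher in 10 of 16 cases and lower in 1 (median 0.78; 6 and 1 of 13 after thinning). *Pfkp*, a phosphofructokinase, was at 98.2 (KO1) and 147 (KO2) CPM in tip cells and 27.2 and 28.7 CPM in the comparator (2.10 ± 0.165 SE), and *Pfkfb3*, whose product activates phosphofructokinase and drives glycolysis of sprouting ECs, at 39.0 and 43.8 CPM against 13.9 and 11.2 CPM (1.68 ± 0.24 SE). The lactate exporter *Slc16a3* was at 15.5 and 16.6 CPM against 1.77 and 0 CPM (3.74 ± 0.52 SE). With 8 (KO1) and 0 (KO2) comparator UMIs, *Slc16a3* could be tested only through the tip cells, so its fold is a description. The 1 lower gene was *Slc2a1*, given above. Of 18 genes of the hypoxia response, 4 were higher and 4 lower (median 0.13), so that the list did not move one way. *Egln3*, an oxygen-dependent prolyl hydroxylase of HIF, was at 106 and 71.1 CPM against 1.55 and 2.24 CPM (5.74 ± 0.289 SE). With 7 (KO1) and 5 (KO2) comparator UMIs, *Egln3* could be tested only through the tip cells, so its fold is a description. *Ankrd37*, a HIF target, was at 134 and 74.1 CPM against 17.7 and 26.4 CPM (2.48 ± 0.181 SE). *Ndrg1* (−2.21) and *Ddit4* (−1.62) were lower, and *Hilpda* (0.21) and *Bnip3* (0.26) were not called.

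*Egln3* (chr12:54178981-54203860, minus strand) had the largest difference of the hypoxia list, a rank given as a description since it could be tested only through the tip cells. The 250 bases upstream of its RefSeq start are shown because of that rank (GRCm38.p6, chr12:54203875-54204124, minus strand, 5′ to 3′ in the direction of transcription). Capitals mark ACGTG, a core of HIF binding sites, searched on both strands (CACGT on the other). It occurs 1 time here and at least 1 time in 16.6% of 32851 promoters. The 250 bases upstream of *Apln*, *Esm1*, *Pgf*, *Cxcr4*, *Adm* and *Cd276*, searched in the same way, held 0 copies.
Egln3: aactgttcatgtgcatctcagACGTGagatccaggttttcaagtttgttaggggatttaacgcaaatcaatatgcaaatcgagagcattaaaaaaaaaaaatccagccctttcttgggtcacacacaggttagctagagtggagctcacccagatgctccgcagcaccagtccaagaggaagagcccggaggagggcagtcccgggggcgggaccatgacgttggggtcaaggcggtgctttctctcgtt

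No tip cell of the *Angpt2*-KO mice had a UMI of *Mki67*, the general marker of cycling cells. In the comparator it had 0 UMIs in KO1 and 55 in KO2, all in 1 cell. *Top2a* had 2 UMIs in KO1 tip cells, in 2 cells. Of 35 cell cycle genes listed, 16 were tested, and 4 were higher and 3 lower (median 0.11; 14.4% and 12.9% of all genes), with 2 and 0 with DESeq2 (5.43% and 3.11% of all genes), so that no direction can be read from the list. *Cdkn1a*, the cell cycle inhibitor p21, was at 785 (KO1) and 658 (KO2) CPM in tip cells and 265 and 336 CPM in the comparator (1.33 ± 0.111 SE). *Cdkn1b* (−0.80) and *Cdkn1c* (−1.09), which code for related inhibitors, were called lower, but neither with DESeq2.

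By a rule on size, the 10 largest rises among genes with at least 50 UMIs in the 4 sums included 4 genes with 0 UMIs in both comparator sums. *Cd276* (chr9:58524298-58555437), the immune checkpoint molecule B7-H3, had 103 (KO1) and 13 (KO2) UMIs in tip cells, or 43.2 and 19.7 CPM. *Pcsk6*, a proprotein convertase, had 57 and 9 UMIs, *F2rl2*, a protease-activated receptor, 49 and 8, and *Rpl3l*, a ribosomal protein paralog, 53 and 8, so that most of these UMIs came from KO1, whose sum of tip cells was deeper. All 10 had at most 17 UMIs in the comparator and met the UMI minimum only through the tip cells, so that their ranks and folds are a description. The calls of the 4 genes at 0 in the comparator were lost with DESeq2, with which *Cd276* had an adjusted p of 0.229, and those of *Cd276*, *Rpl3l*, *F2rl2* and *Ttc9* without KO1. Besides *Pgf*, the other 5 were *Gpr55*, *Col7a1*, *Ankrd1*, *Ttc9* and *Fam163a*. *Gpr55*, a lipid receptor, was at 45.3 and 78.6 CPM against 0.884 and 0.448 CPM (6.20 ± 0.376 SE), and *Col7a1*, the collagen of anchoring fibrils, at 57.9 and 46.9 CPM against 1.10 and 0.448 CPM (5.91 ± 0.369 SE). *Ankrd1*, a target of YAP, was at 12.2 (KO1) and 75.6 (KO2) CPM, over 3 comparator UMIs, and 1 tip cell of KO2 held 33 of the 50 UMIs of that sum. In the *Angpt2*-WT mice, *Gpr55* and *Ankrd1* had 0 UMIs in ECs with 0 and in ECs with 1 to 9 *Apln* UMIs.

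The 10 largest falls by the same rule were from genes with few or no UMIs in tip cells, which met the UMI minimum only through the comparator, so that their order is a description. *Coro2a*, which codes for an actin-binding coronin, had 0 UMIs in tip cells of both mice and 34 (KO1) and 20 (KO2) in the comparator. *Adgrg6*, an adhesion G protein-coupled receptor, had 3 and 0 UMIs against 128 and 77. *Car8*, with 0 and 1 UMIs against 202 and 15, and *Col13a1*, a transmembrane collagen, with 1 and 1 against 143 and 24, rested mostly on KO1, as in KO2 *Car8* was at 1.51 CPM in tip cells and 6.72 CPM in the comparator. The others were *Col6a6*, *Atp2b4*, *Ldb2*, *Ptgs1*, *Colca2* and *Rasgrf2*, with 1 to 3 UMIs in tip cells and 57 to 197 in the comparator. The calls of *Car8*, *Atp2b4*, *Ldb2*, *Colca2* and *Rasgrf2* were lost with DESeq2, and those of *Car8*, *Col13a1*, *Atp2b4*, *Ldb2* and *Ptgs1* without KO1. Without cells with 3 or more *Plvap* UMIs, *Car8*, *Col13a1*, *Atp2b4*, *Ldb2*, *Ptgs1* and *Rasgrf2* had too few UMIs to be tested, whereas *Coro2a*, *Adgrg6*, *Col6a6* and *Colca2* were still called lower.

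The share of cells with a UMI was compared at equal depth. At 5000 UMIs per cell, *Adm* was found in 77.1% of tip cells of KO1 and 84.8% of KO2, in 16.9% and 18.4% of comparator cells, in 7.26% and 6.44% of ECs without *Apln* UMIs, and in 0 of 134 (KO1) and 0 of 27 (KO2) microglial cells, which should lack it. Without thinning it was found in 93.0% and 90.9% of tip cells, at medians of 28329 and 18949 UMIs, and in 33.1% and 25.3% of comparator cells. *Lamb1* was found in 72.9% and 81.8% of tip cells, 8.63% and 13.6% of comparator cells and 0 microglial cells. These shares did not overlap between classes. *Cxcr4* was found in 50.0% and 63.6% of tip cells, 4.31% and 3.4% of comparator cells and 1.49% and 3.70% of microglial cells. The 27 microglial cells of KO2 are too few to tell the comparator share there from a background. *Pgf* was found in only 24.3% and 33.3% of tip cells, 0.392% and 0.680% of comparator cells and 0.746% and 3.70% of microglial cells. *Tek* went down in steps, from 76.7% and 81.6% of ECs without *Apln* UMIs over 62.7% and 70.7% of comparator cells to 15.7% and 18.2% of tip cells, against 0.746% and 7.41% of microglial cells. *Angpt2* went up in steps, from 13.7% and 11.8% over 30.6% and 28.6% to 47.1% and 63.6%, against 0.746% and 0 of microglial cells. The microglial cells had medians of 6066.5 (KO1) and 3292 (KO2) UMIs before thinning.

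**Figure D5:**
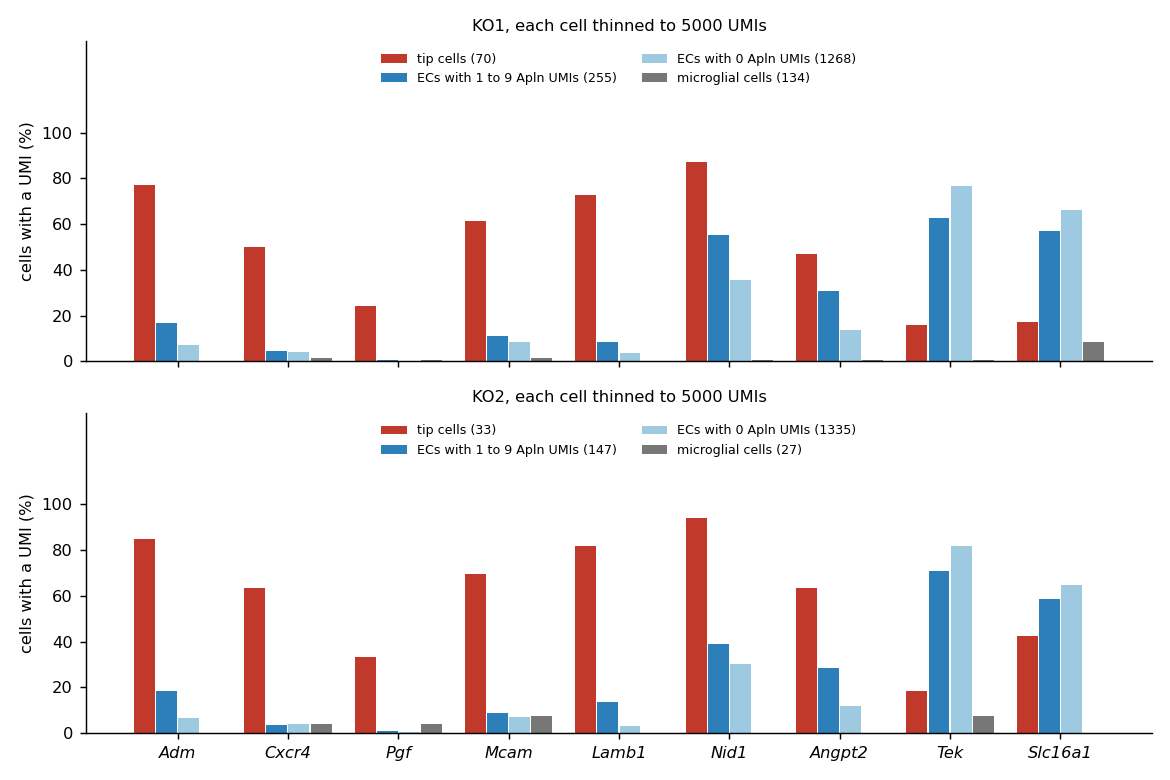
Percent of cells with at least 1 UMI (y axis) after thinning every cell to 5000 UMIs, for named genes (x axis) in tip cells, ECs with 1 to 9 *Apln* UMIs, ECs with 0 *Apln* UMIs and microglial cells of KO1 and KO2; a bar is 1 class of 1 mouse. *Adm* and *Lamb1* are in more than 70% of tip cells of both mice, whereas *Tek* is in 15.7% and 18.2% of them.

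The tip cells were not uniform. At 5000 UMIs, 1577 genes had a mean of at least 0.5 UMIs per tip cell in both mice, and their median Fano factor (variance over mean, which is 1 for pure counting noise) was 1.18 (KO1) and 1.19 (KO2). *Fn1*, fibronectin, had higher Fano factors of 18.4 and 34.3, at means of 10.7 and 14.5 UMIs per thinned tip cell. It had a median of 6 UMIs in both mice and highest cells of 75 (KO1) and 92 (KO2). In the comparator its Fano factor was 2.60 and 4.03. Where cells differ in their level of a gene, the Fano factor grows with the mean. The values here were not adjusted for that, and the part of the level in these differences was not tested. *Vim*, the intermediate filament vimentin, had 14 and 9.47 against 3.19 and 2.18. *Pgf* had 6.97 and 4.66, with UMIs in 17 of 70 and 11 of 33 thinned tip cells. *Slco1a4*, an organic anion transporter of the BBB, had 6.15 and 4.79 against 3.34 and 3.09, and 36 of 70 (KO1) and 14 of 33 (KO2) thinned tip cells had a UMI of it. *Cxcl12* had like Fano factors among tip cells (15.0 and 17.7) and in the comparator (14.8 and 17.9). Its level was lower in tip cells (2112 and 2998 CPM against 4482 and 4039 CPM), so like Fano factors do not mean a like spread relative to level.

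Correlations between some of these genes had the same sign in both mice. Across tip cells at 5000 UMIs (70 in KO1, 33 in KO2, each set from 1 library), Spearman correlations are given as a description for pairs chosen after their values were seen. *Spock2*, a capillary EC marker that codes for a matrix proteoglycan, correlated with *Slco1a4* (0.74 in KO1 and 0.78 in KO2), and *Cxcl12* with *Slco1a4* (0.61 and 0.70). The opposite sign was seen between *Spock2* and *Col4a1* (−0.60 and −0.58), *Mcam* (−0.59 and −0.55) and *Cxcr4* (−0.47 and −0.51). *Vim* correlated with *Fxyd6* (0.63 and 0.47) and *Cxcr4* (0.50 and 0.61) and had negative values with *Spock2* (−0.59 and −0.51). At a fixed total of UMIs per cell, a gene with a large share lowers the others, and the part of this in the signs was not tested.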

How the data were processed

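Tip cells and comparator cells were taken from 10x Genomics 3′ libraries of 4 mice. The authors deposited counts of UMIs for each gene in each barcode, made with Cell Ranger (6.1.2 in the submitters' processing notes, 6.1.1 in the file headers) on mm10, without normalization. The annotation used for counting was not given in the sources used here; of 32286 gene identifiers, 32235 (99.8%) were in GENCODE M21 for GRCm38, which gave the coordinates. The members, gene lists and tests were chosen with earlier results of these data known.

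Barcodes were kept if they had over 500 genes and less than 10% of UMIs from mitochondrial genes, as in the study. UMIs were summed per mouse and class. The 2 *Angpt2*-KO mice were tested with edgeR 4.0.16 (limma 3.58.1, R 4.3.3) after filterByExpr and TMM normalization, with the class and the mouse as terms (each mouse gives both classes, which is the pairing), glmQLFit and glmQLFTest, and Benjamini-Hochberg adjustment over all genes tested, at 0.05. SE is that of a log2 fold change. Sums come from 2 mice, 1 library each. With 1 residual degree of freedom, p-values rest mostly on a spread shared over all genes. They rest only in part on how each gene differed between these mice. Depth of the sums was 2383648 (KO1) and 661445 (KO2) UMIs for tip cells and 4527336 and 2233556 UMIs for the comparator. On simulated counts for 10059 genes the test recovered 75.0% of 2-fold and 94.9% of 4-fold changes, with 3 false calls. Those counts were drawn with the dispersion trend that the fit itself had estimated, and changes were put only into genes above a minimum mean. Few false calls were therefore built in, and the simulation says nothing of real genes that depart from the trend. Cells were thinned to 5000 UMIs with a fixed seed (Python 3.11.15, numpy 2.4.6, scipy 1.17.1, matplotlib 3.10.9). Microglial cells had at least 10 UMIs of *C1qa*, *C1qb* and *C1qc*.

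Named were 30 set genes, the 10 largest rises and the 10 largest falls with at least 50 UMIs and the same direction in both mice, and up to 3 called members of each list with the largest change; further list members are named with their log2 fold change only, chosen after their values were seen. Alternatives were DESeq2 1.42.0, no TMM, no or a stricter count filter, no replicate block, further classes in the fit, other cut-offs and comparators, thinning, and each mouse left out. The tip cell of WT2 was in no test. Stainings and other assays were not used here, and some genes that the rule names are not reported here.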

Additional observations from a re-analysis of the deposited data

How the results depend on the processing

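Counts of called genes kept within 1.5 times of 1474 higher and 1319 lower in most alternatives. They moved to 556 higher and 319 lower with DESeq2, to 607 and 511 (of 6928 tested) with cells thinned to 5000 UMIs, to 418 and 413 (of 5768) with the cut-offs applied after thinning, and to 545 and 458 (of 8557) against comparator cells with an *Esm1* UMI. Leaving out a mouse gave 687 to 1225 higher and 543 to 985 lower. Without the replicate block (the mouse as a pairing term) 1162 were higher and 1017 lower, and *Nrp1*, *Vegfc* and *Ttr* and hemoglobin genes lost their calls.

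The share of tip cells in KO1, 3.14%, was 2.07% with the cut-offs applied after thinning, 2.08% with at least 20 *Apln* and 10 *Esm1* UMIs, and 4.17% among ECs with all 6 EC markers. That of KO2, 0.763%, was 1.09%, 0.462% and 1.31%, and that of WT2 was 0 after thinning and 0 with the higher cut-offs.

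Of 2329 values of 131 named genes under these alternatives, 2167 kept direction and side of the threshold, 144 lost the call, 3 gained it and 15 changed sign. Against comparator cells with an *Esm1* UMI the log2 fold changes became −0.18 (*Nrp1*), 0.076 (*Aplnr*), −0.14 (*Notch1*), 0.49 (*Nr2f2*), 1.35 (*Vcam1*) and 0.023 (*Ier3*). Against ECs without *Apln* UMIs *Aplnr* was at 0.38. With the cut-offs applied after thinning, *Flt4* (−0.0079), *Notch1* (−0.028) and *Foxo1* (0.10) changed sign, as did *Foxo1* (0.099) after thinning alone, *Plpp3* (0.16) without cells with 3 or more *Plvap* UMIs, and *Hbb-bs* (0.059), *Hba-a1* (0.047) and *Hba-a2* (0.11) without KO1 (−8.14, −7.16 and −8.45 without KO2). The cause was not tested. The exclusions of cells with *Plvap* or with 10 or more *Hbb-bs* UMIs were chosen after seeing the data, and without the latter 1536 genes were higher and 1282 lower. The 33 tip cells of KO2 limit the precision of low genes.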

Other observations

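Further gene groups of the tip cells are given as values. Of 20 genes of BMP and TGF-β signaling, 5 were higher and 10 lower (median log2 fold change −0.18; 14.4% and 12.9% of all genes), with 3 and 9 of 18 after thinning and 3 and 4 with DESeq2. The ligands *Bmp4* (2.45) and *Bmp2* (2.25) and the transducer *Smad1* (1.79) were higher, whereas *Id1* (−0.46), *Id2* (−1.12), *Id3* (−0.39), *Smad6* (−0.64) and *Smad7* (−0.61), known targets of the pathway, were called lower. None of these 5 calls held with DESeq2, and that of *Smad6* was also lost after thinning. In the comparator *Bmp4* had 8 (KO1) and 7 (KO2) UMIs and *Bmp2* had 10 and 4. Both could be tested only through the tip cells, so their folds are a description. The calls of *Bmp4* and *Bmp2* were lost with DESeq2 and without KO1. Of 13 YAP and TAZ effectors, 8 were higher and 1 lower (median 0.41), with 3 and 0 of 10 after thinning and 5 and 0 with DESeq2. *Ccn1* (1.64) was among the former, as was *Ccn2* (0.85), whose log2 fold change was 0.39 after thinning and was not called. Of 28 endothelial transcription factors, 9 were higher and 9 lower (median −0.02; 6 and 8 of 28 after thinning; 7 and 5 with DESeq2). The flow-induced factors *Klf4* (−1.47) and *Klf2* (−1.18) were lower, at 261 (KO1) and 249 (KO2) CPM of *Klf4* in tip cells and 743 and 719 CPM in the comparator, and *Ets2* (1.28), *Sox7* (1.10) and *Prdm1* (0.98) were higher.

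Coagulation genes moved both ways, with 7 of 13 higher and 3 lower (median 0.69; 5 and 2 of 12 after thinning; 4 and 2 with DESeq2). *F2r*, the thrombin receptor, was at 149 (KO1) and 135 (KO2) CPM in tip cells and 22.3 and 16.1 CPM in the comparator, and *Vwf* at 646 and 620 CPM against 311 and 380 CPM. *F5*, coagulation factor V, was at 18.5 and 7.56 CPM against 126 and 181 CPM. Of 7 leukocyte adhesion genes, 1, *Cd34* (0.54), was higher and 5 were lower (median −0.82), among them *Icam1* (−1.78), *Icam2* (−0.82) and *Vcam1* (−1.56). *Vcam1* lost its call with DESeq2 and was at 1.35, not called, against comparator cells with an *Esm1* UMI, and *Icam1* lost its call after thinning. Of 27 genes of protein folding and secretion, 11 were higher and 1 lower (median 0.25, with 6 and 0 of 26 after thinning and 2 and 0 with DESeq2). *Kdelr3* (3.20), a retrieval receptor of the endoplasmic reticulum, was among the higher. With 14 (KO1) and 2 (KO2) comparator UMIs, it could be tested only through the tip cells, so its fold is a description. Immediate early and heat shock genes, which dissociation can induce, were called in both directions, with 6 of 20 higher and 6 lower (median −0.05; 2 and 4 after thinning; 4 and 2 with DESeq2). Among growth factors and their binding proteins, 5 of 16 were higher and 7 lower (median −0.37), with *Ptn* (−3.19) among the lower. After thinning 4 were higher and 5 lower of 12 (median −0.03), and without cells with 3 or more *Plvap* UMIs 7 were higher and 4 lower of 14 (median 0.28), so that the balance of this list depended on such cells. The mitochondrial share of a cell's UMIs had medians of 1.89% (KO1) and 2.18% (KO2) in tip cells and 2.45% and 2.77% in the comparator.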
